A study of Mus musculus with 24 samples.

Results

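Livers of mice given vutiglabridin were compared directly with livers of mice given semaglutide, 8 samples against 8. Vutiglabridin is a synthetic relative of glabridin, a flavonoid of licorice, which the series title ties to paraoxonase-2 and to autophagy. Semaglutide is a peptide drug that acts on the GLP-1 receptor and lowers appetite and body weight. All mice had a NASH liver, that is a fatty liver with inflammation and scarring, and 8 vehicle livers are quoted only to place the levels. Treatment and replicate number are all that the labels used here state of a sample, so strain, age, sex, diet, dose and length of treatment are not stated for any group. Nothing in them says that replicates came from separate animals, so each p-value speaks of the variation among the samples at hand, part or all of which could be technical. The liver is known for a division of labour along its blood flow: hepatocytes near the portal vein break down amino acids and make urea, and those near the central vein hold most of the drug-metabolizing enzymes. In rodents the pattern of growth hormone secretion also sets male-biased and female-biased liver genes, among them the major urinary proteins.

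Genes were chosen by level alone, with no use of any difference between the groups. A gene entered with at least 0.5 FPKM (mapped fragments scaled by transcript length and library size) in at least 8 of the 16 libraries, and 11280 of the 14293 rows of the table did. The rows of 3 symbols that occur on 2 rows each were left out. At the edge of the rule, 79 genes reached 0.5 FPKM in exactly 8 libraries and 73 in 7. Through the semaglutide group alone 3 genes passed, with all 8 libraries there and none of the others. Differences are vutiglabridin minus semaglutide on the log2(FPKM + 1) scale, where changes of low genes come out smaller than they are, and "higher" or "lower" below always means in vutiglabridin livers.

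The FPKM steps that 1 fragment makes implied (M standing for mega) 5.98 to 15.3 M fragments per vutiglabridin library, 9.32 to 12.4 M per semaglutide library and 12 to 19.9 M per vehicle library. Vutiglabridin replicate 7 was the shallowest, with 1413 genes at 0 FPKM. The labelled tissue shows in its defining genes: 39 secreted and identity genes of hepatocytes summed to 85576 to 99721 FPKM in vutiglabridin and 78793 to 98154 in semaglutide livers. The semaglutide columns were written in another format, with a trailing space in all 114344 cells and none elsewhere, and in them the rows of all 3 repeated symbols are identical, as in no other group. A separate processing of the semaglutide libraries therefore cannot be told apart from the drug in any difference given here. FPKM totals were higher in vutiglabridin (368614 ± 14580, SD, n = 8) than in semaglutide libraries (343428 ± 14751, n = 8; 2-sided exact permutation p = 0.00552).

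The 2 groups of livers differed in 2382 genes (limma adjusted p under 0.05), which is 21.1% of those tested. Of these, 1145 (10.2%) were higher and 1237 (11%) lower, and 53 differed at least 2-fold, 39 higher and 14 lower. All 8 vutiglabridin values lay above all 8 semaglutide values in 129 genes (1.14%) and below them in 260 (2.3%). Rescaling to equal totals (TPM) gave 2500 calls with another split, 512 higher and 1988 lower, and moved the median difference of all genes from 0.01 to −0.08. The first principal component held 30.6% of the variance and put all 8 vutiglabridin libraries on one side and all 8 semaglutide libraries on the other. The median SD over genes within a group was 0.17 on the log2 scale in vutiglabridin and 0.15 in semaglutide livers, and 0.15 in vutiglabridin without replicate 7.

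**Figure D1:**
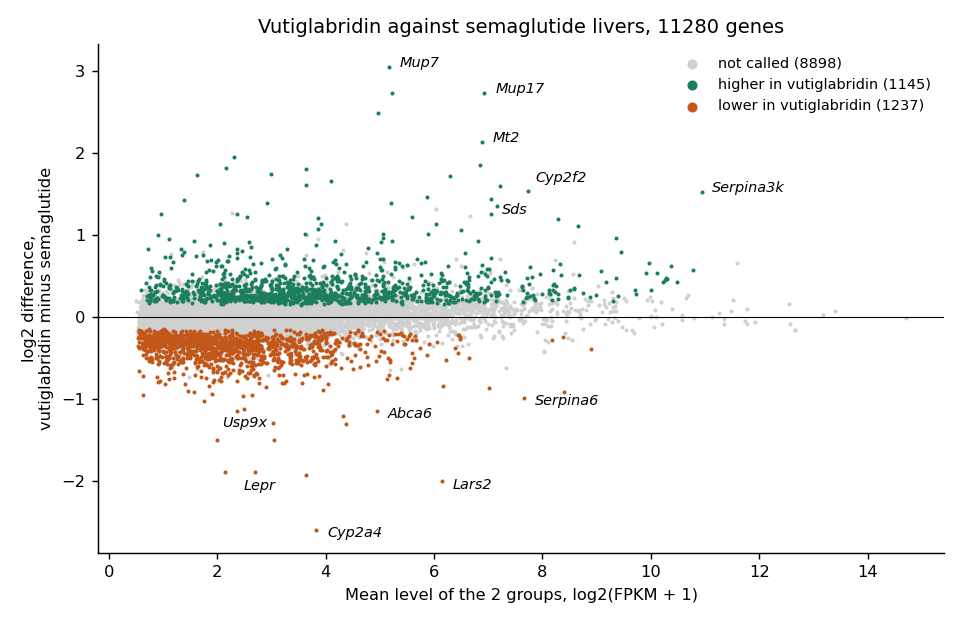
Mean level of the vutiglabridin and semaglutide groups on the x axis, log2(FPKM + 1), against the log2 difference on the y axis for 11280 genes, with 1145 genes called higher in vutiglabridin in green, 1237 lower in orange and the rest in grey. Mup7 (3.05) and Cyp2a4 (−2.60) lie at the ends, and most genes lie close to 0.

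Vehicle livers, which had no part in choosing these calls, lay unevenly between the drugs. Among the genes called lower, the vehicle mean was nearer to the vutiglabridin mean in 956 (77.3%), and it was below both drug means in 532 (43.0%). Among the genes called higher, it was nearer to vutiglabridin in 673 (58.8%) and between the drug means in 830 (72.5%). In genes that were not called, it was nearer to vutiglabridin in 52.0%, below both drug means in 36.0% and between them in 26.8%. A call needs drug means that lie apart, which by itself leaves more room for vehicle in between. The drug that stood apart from vehicle in most of the genes called lower, semaglutide, is also the one with the other file format.

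The major urinary proteins held the 4 largest differences of all genes tested. These are small carriers of scent molecules, made in the liver under growth hormone and testosterone and shed in urine. Of 16 tested genes of the family 11 were higher and the other 5 did not pass, with a median difference of 1.34 against 0.01 over all genes. The summed level of the family differed less, and the groups overlapped in it. It was 7969 to 17859 FPKM (median 10120) in vutiglabridin livers and 4678 to 10273 (median 8607) in semaglutide livers. Vehicle livers held 7052 to 10360 FPKM (median 8132). They form a cluster of near-identical copies on chromosome 4, so each is uncertain as a single gene. To show how alike the members that moved are, 121 bases upstream of 4 of them follow, from RefSeq on GRCm38.p6, all on the minus strand and 5′ to 3′, with capitals where a base differs from Mup7. The stretch ends at the base before the annotated start of Mup7 (chr4:60070476-60070596) and lies 106, 83 and 129 bases before those of Mup11 (chr4:60662502-60662622), Mup14 (chr4:61304082-61304202) and Mup17 (chr4:61595962-61596082).
Mup7: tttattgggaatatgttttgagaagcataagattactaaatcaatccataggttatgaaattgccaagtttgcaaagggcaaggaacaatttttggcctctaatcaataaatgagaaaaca
Mup11: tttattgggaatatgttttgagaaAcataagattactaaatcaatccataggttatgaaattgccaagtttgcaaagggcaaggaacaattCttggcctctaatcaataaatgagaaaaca
Mup14: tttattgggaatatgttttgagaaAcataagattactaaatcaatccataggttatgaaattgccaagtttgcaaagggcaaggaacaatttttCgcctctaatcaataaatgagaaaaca
Mup17: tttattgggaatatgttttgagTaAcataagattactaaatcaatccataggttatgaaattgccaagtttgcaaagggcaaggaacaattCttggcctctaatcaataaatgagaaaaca
Mup11 and Mup14 differ from Mup7 at 2 of these bases each and Mup17 at 3. Of the 16 tested genes 11 had an entry in the promoter table.

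Mup7 was at 24.4 to 389 FPKM (median 65.2) in vutiglabridin livers and 1.19 to 22 (median 7.24) in semaglutide livers. The groups did not overlap, with vutiglabridin replicate 7 the highest sample and semaglutide replicate 7 the lowest. Its difference was 3.05 ± 0.51 (SE; limma adjusted p = 0.000467), a 9.99-fold ratio of mean FPKM, and vehicle livers held 2.95 to 28.2 FPKM. Mup17, the most abundant of the 4, was at 86.1 to 679 FPKM (median 253) in vutiglabridin livers and 1.24 to 116 (median 45.7) in semaglutide livers. There 6 of 8 vutiglabridin values lay above all semaglutide values, and the difference was 2.73 ± 0.65 (SE; limma adjusted p = 0.00657). Mup11 (2.74 ± 0.58), Mup14 (2.49 ± 0.42), Mup12 (1.95 ± 0.33), Mup16 (1.75 ± 0.33) and Mup1 (1.43 ± 0.23) were higher with no overlap of the groups in any of them. In all 7 of these genes semaglutide replicate 7 was the lowest of its group, and without it 10 of the 16 family members were called, with a median of 1.2.

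Of 29 tested male-biased genes that growth hormone controls 14 were higher, 1 was lower and 14 did not pass, with a median of 0.62. The list shares 4 genes with the major urinary proteins, Mup3, Mup7, Mup20 and Mup21, of which Mup7 was called and counts in both. Serpina3k, a protease inhibitor of plasma, was at 2502 to 4405 FPKM (median 3173) in vutiglabridin livers and 441 to 1478 (median 1332) in semaglutide livers, with no overlap. It was the most abundant gene among those at least 2-fold higher, with a difference of 1.53 ± 0.21 (SE; limma adjusted p = 9.42e-05), although semaglutide replicate 7 lay far below the others. Hsd3b5, a steroid-reducing enzyme of male mouse liver, was at 0.70 to 12.4 FPKM (median 4.38) in vutiglabridin livers and 0 to 1.74 (median 0.32) in semaglutide livers, and 6 of 8 vutiglabridin values exceeded the highest semaglutide value (1.73 ± 0.36, limma adjusted p = 0.00264). Serpina1e, an alpha-1-antitrypsin of the plasma (1.86 ± 0.42), Cyp4a12b, a fatty acid hydroxylase (1.66 ± 0.33), and Ugt2b1, which glucuronidates steroids and drugs (1.25 ± 0.17), were higher too.

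Female-biased genes went the other way. Of 15 tested members 10 were lower, 1 was higher and 4 did not pass, with a median of −0.66. Cyp2a4, a steroid hydroxylase of female mouse liver, was at 1.13 to 6.94 FPKM (median 4.11) in vutiglabridin livers and 12.6 to 111 (median 17.2) in semaglutide livers. The groups did not overlap, semaglutide replicates 7 and 8 were the highest samples, and the difference of −2.60 ± 0.43 (SE; limma adjusted p = 0.000446) was the lowest of all genes. Lepr, the leptin receptor, was at 1.52 to 3.3 FPKM (median 2.31) in vutiglabridin livers and 7.3 to 18.3 (median 11.1) in semaglutide livers and did not overlap either (−1.89 ± 0.14, limma adjusted p = 3.78e-07). Its vehicle values, 1.17 to 2.45 FPKM, lay with those of vutiglabridin. Abcd2, a peroxisomal carrier of very long fatty acids (−1.30 ± 0.15), Slc22a27, an organic anion carrier (−1.16 ± 0.18), and Hao2, a peroxisomal oxidase (−0.66 ± 0.10), were lower with no overlap. Cyp2b9 (−1.93 ± 0.37) and Acot3, an acyl-CoA thioesterase (−1.50 ± 0.39), were lower with overlap, and for Acot3 the exact Wilcoxon test missed the threshold (adjusted p = 0.0528). Gsta2, a glutathione transferase, was the member that was higher (1.13 ± 0.17). Sult1e1, the estrogen sulfotransferase, belongs to neither list and was at 2.05 to 26.9 FPKM (median 6.03) in vutiglabridin livers and 0.37 to 3.37 (median 0.85) in semaglutide livers (1.82 ± 0.34, limma adjusted p = 0.00119).

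The Y-linked gene Ddx3y was found in every library (7.39 to 15.6 FPKM in vutiglabridin, 14.8 to 22.6 in semaglutide and 8.56 to 13 in vehicle livers). So was Y-linked Eif2s3y, with ranges that overlapped (13 to 22.3 FPKM in vutiglabridin, 13.5 to 16.9 in semaglutide and 10.8 to 17 in vehicle livers). Every library thus held RNA of male tissue, although the labels give no sex. By the mean of the 16 major urinary protein genes, the 8 vutiglabridin libraries lay at 4.37 to 5.98 on the log2(FPKM + 1) scale, the semaglutide libraries at 2.16 to 4.27 and the vehicle libraries at 3.22 to 4.21. By the mean of the 15 female-biased genes, semaglutide libraries lay at 2.96 to 3.61, vutiglabridin at 2.11 to 2.79 and vehicle at 2.08 to 2.74. Vutiglabridin livers thus stood above both other groups in the first measure and semaglutide livers above both in the second. Without semaglutide replicate 7, the extreme library on both, 13 male-biased genes were higher and 9 female-biased genes lower.

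**Figure D2:**
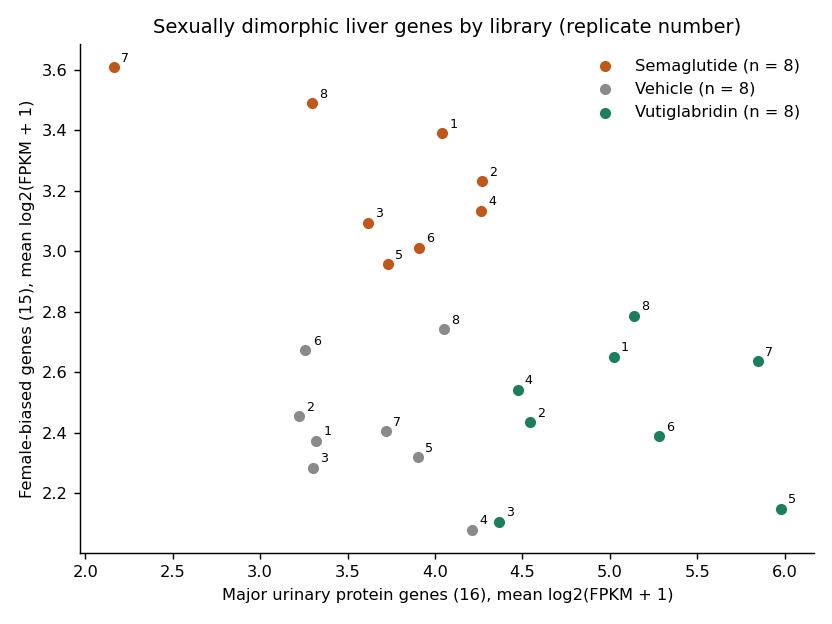
Each point is 1 of 24 libraries, numbered by replicate, with the mean log2(FPKM + 1) of 16 major urinary protein genes on the x axis and of 15 female-biased genes on the y axis. Vutiglabridin libraries lie to the right, at 4.37 or more, and semaglutide libraries at the top, at 2.96 or more, with semaglutide replicate 7 in the upper left corner.

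Of 48 tested enzymes of amino acid breakdown 33 were higher and the other 15 did not pass, with a median difference of 0.33. The count was 22, with 1 lower, under quantile normalization (median 0.20). Sds, serine dehydratase, which turns serine into pyruvate, was at 150.4 to 289 FPKM (median 209.7) in vutiglabridin livers and 51.3 to 115 (median 81.7) in semaglutide livers. No value overlapped, all 8 semaglutide values were low, and the difference was 1.43 ± 0.17 (SE; limma adjusted p = 2.99e-05), while vehicle livers, at 103 to 194 FPKM, overlapped both groups. Ftcd, an enzyme of histidine breakdown, was at 138 to 159 FPKM (median 148) in vutiglabridin livers and 87.9 to 135 (median 101) in semaglutide livers, again with no overlap (0.50 ± 0.07, limma adjusted p = 0.000218). Tat, the first enzyme of tyrosine breakdown, was at 299 to 1048 FPKM (median 585) in vutiglabridin livers and 188 to 388 (median 276) in semaglutide livers, and 6 of 8 vutiglabridin values lay above the semaglutide range (1.11 ± 0.22, limma adjusted p = 0.00172). Sdsl, a relative of Sds (0.59 ± 0.09), Dmgdh, which oxidizes dimethylglycine (0.46 ± 0.08), and Ahcy, which splits S-adenosylhomocysteine (0.44 ± 0.08), were higher as well.

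Genes of the zone near the portal vein, where several of these enzymes sit, went in the same direction. Their list shares 3 genes with that of amino acid breakdown, Hal, Sds and Uroc1, which were all higher and count in both. Of 20 periportal genes 11 were higher and the other 9 did not pass, with a median of 0.35 that fell to 0.18 under quantile normalization, with 7 higher. Cyp2f2, a cytochrome P450 of that zone, was at 268 to 409 FPKM (median 368) in vutiglabridin livers and 71.7 to 195 (median 132) in semaglutide livers, with no overlap and the lowest values in semaglutide replicates 7 and 8. Its difference was 1.54 ± 0.17 (SE; limma adjusted p = 1.77e-05). Of the urea cycle, Asl, argininosuccinate lyase (0.53 ± 0.09), and Arg1, arginase (0.55 ± 0.12), were higher, as was the mitochondrial aldehyde dehydrogenase Aldh1b1 (0.63 ± 0.11). Pericentral genes, from the other end of the lobule, were higher in 10 of 24, with the other 14 not passing, but their median was 0.11, 0.03 after removal of GC and length trends and close to 0 under TPM, and 4 were higher under quantile normalization. Named among them are Cyp1a2, which metabolizes caffeine and aromatic amines (0.58 ± 0.13), Cyb5a, an electron carrier for cytochromes P450 (0.40 ± 0.07), and Rhbg, an ammonium channel (0.55 ± 0.13). Fewer cells of a kind and less RNA per cell cannot be told apart in such bulk samples.

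Drug-metabolizing enzymes were higher in 28 of 53 cases, lower in 4 and did not pass in 21, with a median of 0.35. Quantile normalization changed that to 18 higher and 7 lower (median 0.22). Ces2a, a carboxylesterase that splits ester drugs and acylglycerols, was at 100.2 to 148 FPKM (median 131) in vutiglabridin livers and 51.4 to 70.3 (median 62.1) in semaglutide livers. The groups lay wide apart, with every vutiglabridin value above every semaglutide value, and the difference was 1.06 ± 0.09 (SE; limma adjusted p = 5.11e-07). Vehicle livers held 41 to 62.8 FPKM. Its relative Ces2c (1.21 ± 0.14) and the cytochromes P450 Cyp2c29 (1.19 ± 0.17), Cyp2c54 (1.46 ± 0.31) and Cyp2a12 (0.63 ± 0.07) were higher with no overlap. Vehicle values differed among them: Cyp2c29 was at 77.2 to 152 FPKM there, below both drugs' medians, and Cyp2a12 at 134 to 168 FPKM, at the level of vutiglabridin.

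Conjugating enzymes, which attach glutathione, glucuronic acid or sulfate, were higher in 23 of 46, lower in 1 and did not pass in 22 (median 0.37, and 0.21 under quantile normalization). Their summed level was 7419.8 to 8580.4 FPKM in vutiglabridin and 4936 to 6592 in semaglutide livers, with no overlap. Gstm3, a glutathione transferase, was at 115 to 378 FPKM (median 276) in vutiglabridin livers and 37.8 to 226 (median 73.4) in semaglutide livers, with 5 of 8 vutiglabridin values above the semaglutide range (1.59 ± 0.33, limma adjusted p = 0.0026). Gstm4 (0.70 ± 0.13) and the sulfotransferase Sult5a1 (1.00 ± 0.18) were higher too. Mgst1, a membrane-bound glutathione transferase at 1929 to 2416 FPKM (median 2117) in vutiglabridin livers and 1138 to 1798 (median 1447) in semaglutide livers, did not overlap (0.57 ± 0.09, limma adjusted p = 0.000392), but it did not pass under quantile normalization (difference 0.21, adjusted p = 0.133).

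Of 32 genes of the antioxidant system 8 were higher and 2 lower, 31.25% called against 21.1% of all genes, with a median of 0.17. The count of higher genes was 4 under quantile normalization and 4 or 5 without vutiglabridin replicate 4 or 7 or semaglutide replicate 3, 6 or 8. Prdx5, a peroxidase (0.48 ± 0.09), Keap1, which holds the antioxidant factor NRF2 in check (0.28 ± 0.07), and Taldo1, of the pentose phosphate pathway (0.30 ± 0.06), were higher. Mt2, a metallothionein that binds zinc and copper, was at 27.7 to 1084 FPKM (median 153) in vutiglabridin livers and 7.73 to 147 (median 36.1) in semaglutide livers. The groups overlapped, vutiglabridin replicate 7 was the highest, and the difference was 2.13 ± 0.71 (SE; limma adjusted p = 0.0379). That call ended, at adjusted p = 0.0523 to 0.0783, without vutiglabridin replicate 2, 4, 6, 7 or 8 or semaglutide replicate 3, 4, 6 or 8, and by the exact Wilcoxon test (0.123).

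**Figure D3:**
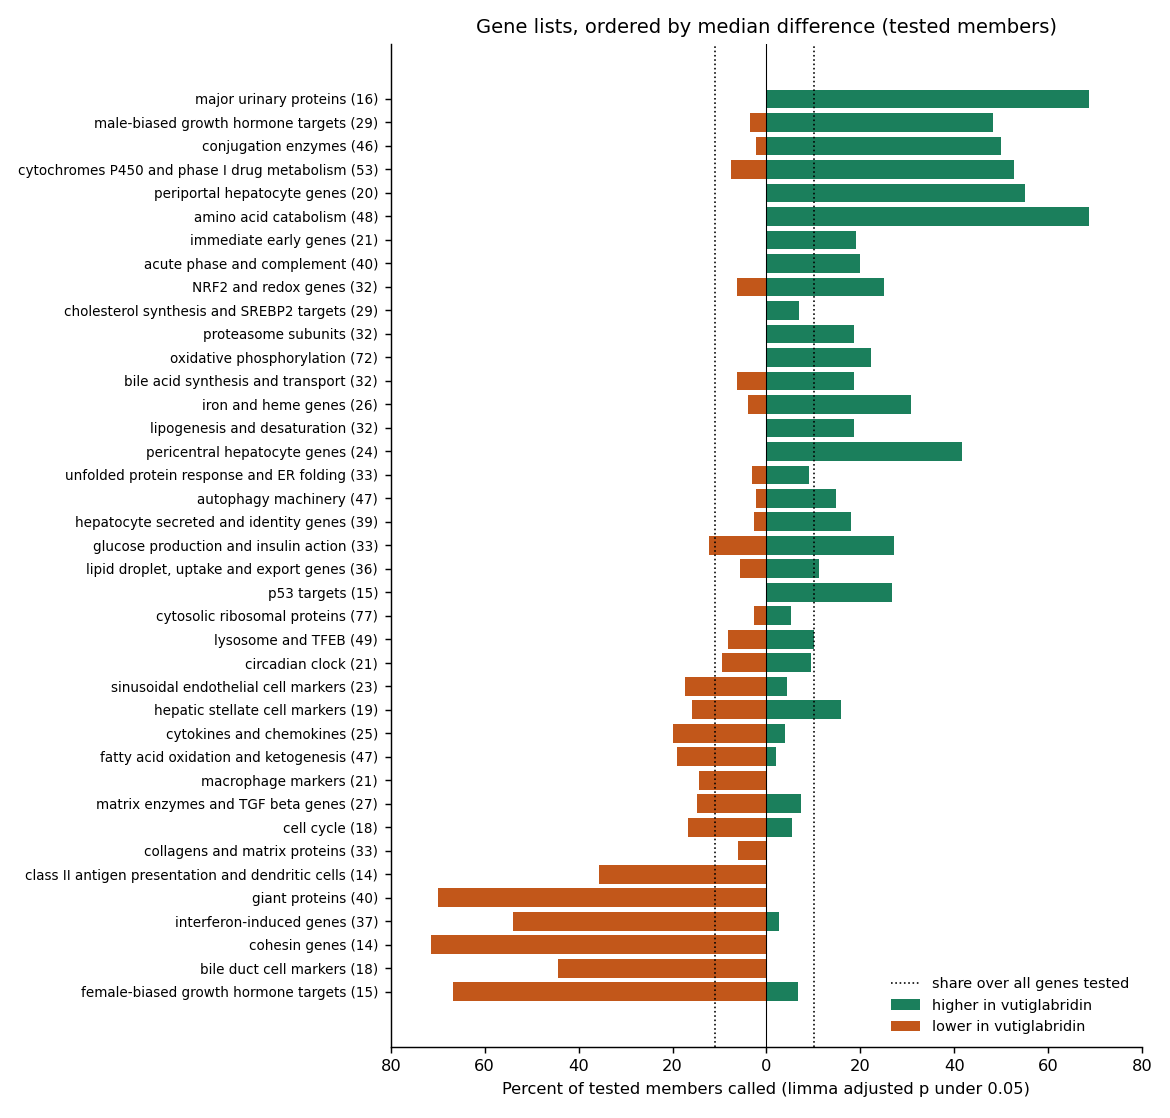
Bars give the percent of tested members of each gene list called higher in vutiglabridin (right, green) and lower (left, orange), ordered by median difference, with tested members in parentheses. Dotted lines mark the shares over all genes, 10.2% and 11%, and the bars reach 68.8% higher for the major urinary proteins and for amino acid catabolism and 71.4% lower for the cohesin genes.

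Genes of sugar and fat metabolism differed in both directions. Slc2a2, the main glucose carrier of hepatocytes, was at 56.7 to 83.5 FPKM (median 74.8) in vutiglabridin livers and 75.3 to 115 (median 93.1) in semaglutide livers, and 4 of 8 vutiglabridin values lay below the semaglutide range (−0.38 ± 0.09, limma adjusted p = 0.00706). Gckr, a regulatory protein of hepatic glucose use, was higher (0.36 ± 0.08). Of 33 genes of glucose production and insulin action 9 were higher and 4 lower, 39.4% against 21.1% of all genes, with a median of 0.08 that was −0.01 under TPM, where 4 were higher and 7 lower. The count of higher genes was 5 without semaglutide replicate 2, and that of lower genes 2 without that library, vutiglabridin replicate 2, 3 or 5 or semaglutide replicate 4, 5, 6 or 8. Glp1r, the receptor of semaglutide, was not tested: it was at 0 to 0.07 FPKM in vutiglabridin and 0 to 0.1 in semaglutide livers.

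Lipogenesis genes were higher in 6 of 32, or 18.8% against 10.2% of all genes, with a median of 0.11 (0.02 under TPM and quantile normalization). Mlxipl, the glucose-sensing factor ChREBP, was at 75 to 91.2 FPKM (median 81.2) in vutiglabridin livers and 39.8 to 74.2 (median 58.3) in semaglutide livers, with no overlap (0.54 ± 0.10, limma adjusted p = 0.0015). Lpin1, a phosphatidate phosphatase (0.96 ± 0.22), and Mogat1, which makes diacylglycerol (0.66 ± 0.12), were higher with some overlap. Of 47 genes of fatty acid oxidation and ketone production 9 were lower, 1 was higher and 37 did not pass, with a median of −0.12. The share called in either direction, 21.3%, is near the 21.1% of all genes, of which 11% were lower and 10.2% higher. The lower count was 14 under TPM and 16 under quantile normalization. Acot2, a mitochondrial acyl-CoA thioesterase, was lower (−0.63 ± 0.14). Fgf21, a hormone of fasting, was at 1.8 to 5.45 FPKM (median 3.9) in vutiglabridin livers and 4.38 to 18.2 (median 6.47) in semaglutide livers, and 5 of 8 vutiglabridin values lay below the semaglutide range (−0.80 ± 0.22, limma adjusted p = 0.016). Among genes of lipid droplets and lipoproteins, 4 of 36 were higher, or 1 under quantile normalization, and 2 lower. That is 16.7% called against 21.1% of all genes. Fabp4, a fatty acid carrier of adipocytes and macrophages, was higher (0.80 ± 0.15) and Vldlr, the receptor of very low density lipoprotein, lower (−0.50 ± 0.08). The 4 tested adipocyte markers, Fabp4 among them, summed to 16.2 to 54.1 FPKM in vutiglabridin and 8.11 to 36.3 in semaglutide livers, and their part in the Fabp4 difference was not tested.

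Bile acid genes were higher in 6 of 32 and lower in 2, 25% called against 21.1% of all genes. Their median was 0.14, and 0.01 under quantile normalization, where 2 were higher and 3 lower, while TPM gave 4 and 5. Hsd3b7, a steroid dehydrogenase of bile acid synthesis, was at 3.45 to 4.83 FPKM (median 4.23) in vutiglabridin livers and 1.68 to 3.7 (median 2.21) in semaglutide livers, and 7 of 8 vutiglabridin values lay above the semaglutide range (0.61 ± 0.10, limma adjusted p = 0.000472). Cyp7b1, the oxysterol hydroxylase of the second synthesis route, was at 41 to 96.4 FPKM (median 64.3) in vutiglabridin livers and 27.3 to 52.8 (median 42.5) in semaglutide livers (0.65 ± 0.16, limma adjusted p = 0.00723) and is male-biased as well. Atp8b1, a lipid flippase of the bile canaliculus, was lower (−0.41 ± 0.09).

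The share of plasma protein genes called in either direction was close to that of all genes, of which 10.2% were called higher and 11% lower. Of 39 secreted and identity genes of hepatocytes 7 were higher and 1 lower (20.5% called against 21.1% of all genes, median 0.09, and −0.01 under TPM and −0.03 under quantile normalization, where 1 was higher and 5 lower). Of 40 acute phase and complement genes 8 were higher and the other 32 did not pass. That is 20%, against 21.1% of all genes called in either direction and 10.2% called higher. Under quantile normalization 4 were higher and 3 lower. Orm3, an acute phase glycoprotein, was at 7.2 to 55.8 FPKM (median 15.5) in vutiglabridin livers and 0.96 to 10.8 (median 5.37) in semaglutide livers (1.81 ± 0.41, limma adjusted p = 0.00455), and the highest values came from vutiglabridin replicates 7, 4 and 2. C8b, a chain of the membrane attack complex, was higher (0.52 ± 0.14). Serpina1b was at 1516 to 1793 FPKM (median 1653) in vutiglabridin livers and 1002 to 1356 (median 1215) in semaglutide livers with no overlap (0.42 ± 0.07, limma adjusted p = 0.000781), but quantile normalization ended its call (0.15, adjusted p = 0.168). Serpina6, which carries glucocorticoids in plasma, belongs to no list and was at 78.5 to 203 FPKM (median 134) in vutiglabridin livers and 215 to 355 (median 279) in semaglutide livers. No value overlapped, and the difference was −0.99 ± 0.18 (SE; limma adjusted p = 0.00108).

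Interferon-induced genes were lower. Of 37 tested members 20 were lower, 1 was higher and 16 did not pass, with a median of −0.32. By the mean of these genes the vutiglabridin libraries lay at 2.52 to 2.82 on the log2(FPKM + 1) scale, below all semaglutide libraries (2.87 to 3.21) and all vehicle libraries (2.95 to 3.49). Irgm2, a GTPase that guards against intracellular microbes, was at 8.21 to 13 FPKM (median 9.96) in vutiglabridin livers and 17.1 to 23.1 (median 19.9) in semaglutide livers. There was no overlap (−0.90 ± 0.08, limma adjusted p = 9.87e-07), and vehicle livers held 9.6 to 21.7 FPKM. Its relative Igtp (−0.82 ± 0.10), the guanylate-binding protein Gbp7 (−0.69 ± 0.10), Usp18, which dampens interferon signalling (−0.71 ± 0.12), and Ifi44 (−0.50 ± 0.08) were lower, each with no overlap. For Usp18 and Ifi44 the vehicle medians, 6.33 and 1.09 FPKM, lay near or above those of semaglutide.

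Genes that present antigen on class II molecules were lower in 5 of 14, or 35.7% against 11% of all genes, with 9 not passing (median −0.26). Cd74, the chaperone of these molecules, was at 54.1 to 149 FPKM (median 81.9) in vutiglabridin livers and 123 to 204 (median 171) in semaglutide livers. Of 8 vutiglabridin values 5 lay below the semaglutide range, and replicate 3, the highest, lay within it (−0.87 ± 0.19, limma adjusted p = 0.00316). H2-Aa, a class II chain, was lower (−0.59 ± 0.16, limma adjusted p = 0.0137), though the exact Wilcoxon test missed the threshold at 0.0528. The count of 5 was 2 or 3 without vutiglabridin replicate 1, 2, 4, 7 or 8 or semaglutide replicate 2, 5, 6, 7 or 8. With 1 library left out it ran from 2 to 7, and it was 7 under TPM and after removal of GC and length trends. Macrophage markers were lower in 3 of 21, 14.3% against 11% of all genes called lower, or in 5 without semaglutide replicate 1. They summed to 311 to 599 FPKM in vutiglabridin and 405 to 666 in semaglutide livers, so the groups overlapped. The part of cell numbers in the class II and interferon differences was not tested.

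Of 25 cytokine and chemokine genes 5 were lower and 1 higher, 24% called against 21.1% of all genes. The lower count was 3 without vutiglabridin replicate 1, 5, 7 or 8 or semaglutide replicate 3, 4 or 7. Ccl5, which draws T cells, was lower (−0.73 ± 0.19, limma adjusted p = 0.0124, exact Wilcoxon test 0.0528), as was Cxcl16 (−0.35 ± 0.10). Cd9, a tetraspanin of fat-laden macrophages and many other cells, was lower (−0.35 ± 0.09). Zap70, a kinase of T cell receptor signalling, was the 1 called gene of 6 T and NK cell markers and was higher, at 2.94 to 4.41 FPKM (median 3.69) in vutiglabridin livers and 0.85 to 2.82 (median 2.18) in semaglutide livers with no overlap (0.69 ± 0.13, limma adjusted p = 0.00105). The median of the 6 markers was −0.21, and of 3 with an unadjusted limma p under 0.05 only 1 was higher. TPM and removal of GC and length trends each gave 1 higher and 2 lower. In limma no B cell (of 4), neutrophil (of 3) or erythroid (of 6) marker was called, and 1, 1 and 4 had an unadjusted p under 0.05. Erythroid markers summed to 125 to 508 FPKM in vutiglabridin and 119 to 190.5 in semaglutide livers.

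Of 33 collagens and other scar matrix proteins 2 were lower and 31 did not pass, which is 6.06% against 21.1% of all genes, and the median was −0.23. At an unadjusted p under 0.05 there were 13, of which 2 were higher. The lower count was 6 under TPM, 7 without vutiglabridin replicate 3 and 5 without vutiglabridin replicate 6 or semaglutide replicate 1. Col1a1, a chain of type I collagen, was at 2.47 to 12.2 FPKM (median 5.23) in vutiglabridin livers and 6.26 to 17.3 (median 10.1) in semaglutide livers. Vutiglabridin replicate 3 was high and semaglutide replicate 1 low, so the groups overlapped, and the difference was −0.81 ± 0.24 (SE; limma adjusted p = 0.0228), or 0.0669 by the exact Wilcoxon test. Both groups had medians below the vehicle range of 14 to 29.5 FPKM. Of 27 matrix enzymes and TGF beta genes 4 were lower and 2 higher, a share of 22.2% that is near the 21.1% of all genes. With 1 library left out 2 to 7 were lower (2 without vutiglabridin replicate 1 or semaglutide replicate 2, 7 without vutiglabridin replicate 3 or semaglutide replicate 1). Tgfbr1, a receptor of TGF beta (−0.51 ± 0.08), and Mmp14, a membrane-bound matrix protease (−0.34 ± 0.09), were among the lower ones.

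Stellate cell markers, of the cells that make the scar, were higher in 3 of 19 and lower in 3, with a median of −0.07 that was 0.05 after removal of GC and length trends. That is 31.6% called, against 21.1% of all genes. Without vutiglabridin replicate 8, 5 were higher, without vutiglabridin replicate 3, 5 were lower, and without semaglutide replicate 8, 1 was lower. Hgf, the hepatocyte growth factor that stellate cells secrete, was at 0.37 to 0.70 FPKM (median 0.57) in vutiglabridin livers and 1.14 to 2.07 (median 1.85) in semaglutide livers, with no overlap (−0.83 ± 0.07, limma adjusted p = 1.29e-06). Its vehicle values of 0.58 to 1.14 FPKM reached no higher than the lowest semaglutide value. Angptl6 (0.64 ± 0.11), Vipr1, a receptor of vasoactive intestinal peptide (0.46 ± 0.09), and Rgs5, a pericyte marker (0.47 ± 0.12), were higher. The list's summed level was 131 to 204 FPKM in vutiglabridin and 132 to 162 in semaglutide livers.

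Bile duct markers were lower in 8 of 18, with 10 not passing, and the median was −0.45. Pkhd1, the protein of polycystic kidney and liver disease, was at 0.36 to 1.2 FPKM (median 0.91) in vutiglabridin livers and 1.26 to 2.2 (median 1.72) in semaglutide livers, with no overlap (−0.58 ± 0.10, limma adjusted p = 0.000544). Cd24a, an adhesion protein (−0.86 ± 0.21), Sox4, a factor of bile duct development (−0.74 ± 0.17), and Bicc1, an RNA-binding protein of ducts (−0.68 ± 0.15), were lower, with semaglutide replicate 1 lowest of its group in all of them. The list's summed level, 541 to 945 FPKM in vutiglabridin and 553 to 970.4 in semaglutide livers, did not part the groups. Of 23 sinusoidal endothelial markers 4 were lower and 1 higher, near the background, among them Kdr, a receptor of vascular growth factor (−0.35 ± 0.07). The lower count was 2 without vutiglabridin replicate 4 or 8 or semaglutide replicate 1, 6 or 7.

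Of 18 cell cycle genes 3 were lower and 1 higher, 22.2% against 21.1% of all genes. Removal of GC and length trends gave 5 lower. The higher one did not pass under TPM, with the replicate number as a block or by the exact Wilcoxon test. Nor did it pass without vutiglabridin replicate 2, 5, 6 or 7 or semaglutide replicate 2 or 5. Ccnd1, cyclin D1, which starts the cycle in hepatocytes, was at 5.97 to 24.5 FPKM (median 11.8) in vutiglabridin livers and 18.4 to 51.9 (median 27.8) in semaglutide livers. Only vutiglabridin replicate 4 reached into the semaglutide range, and the difference was −1.21 ± 0.24 (SE; limma adjusted p = 0.00168). Vehicle livers held 18.6 to 32.8 FPKM, as high as semaglutide. Of 15 targets of p53 4 were higher and 11 did not pass, or 26.7% against 10.2% of all genes called higher. TPM gave 2 higher and 2 lower. Btg2, which slows proliferation (0.88 ± 0.25, limma adjusted p = 0.0176, exact Wilcoxon test 0.0669), and Gdf15, a stress hormone that curbs appetite (0.75 ± 0.20, limma adjusted p = 0.0141), were higher. Of 21 clock genes 19.0% were called, against 21.1% of all genes. The 2 higher ones were the repressor Ciart (0.85 ± 0.18) and the deadenylase Noct (0.77 ± 0.21). The 2 lower ones were the receptors Nr1d2 (−0.46 ± 0.12) and Rora (−0.43 ± 0.09). The lower count was 4 under TPM and without vutiglabridin replicate 2.

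**Figure D4:**
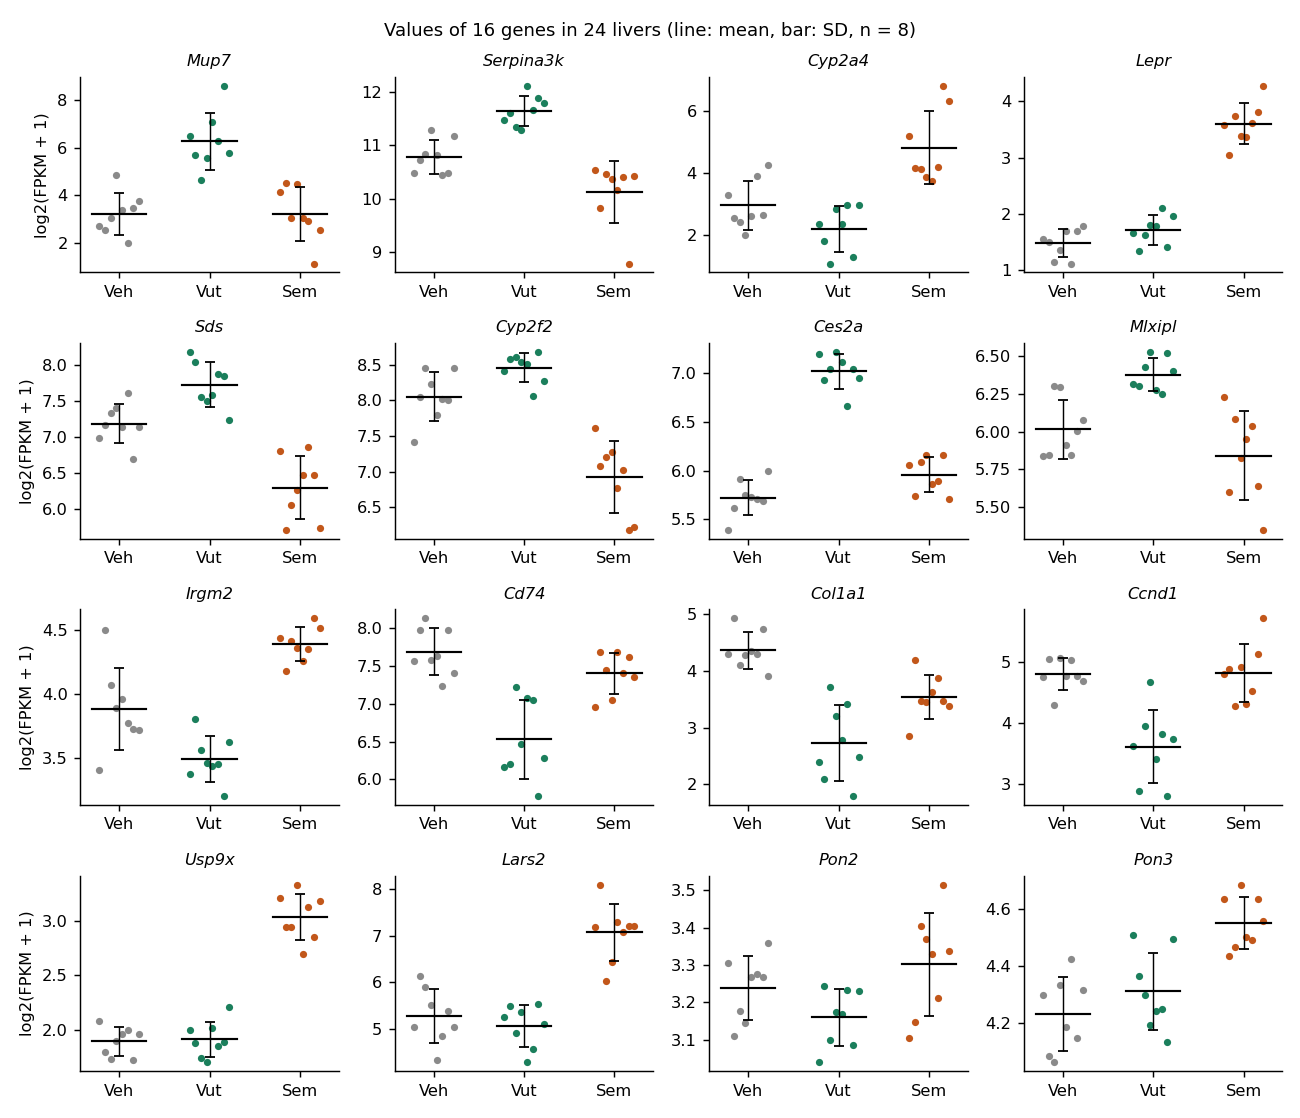
Points give log2(FPKM + 1) of 16 genes in the 8 vehicle (Veh), 8 vutiglabridin (Vut) and 8 semaglutide (Sem) livers, with a line at the mean and a bar for the SD. Sds and Cyp2f2 lie highest in vutiglabridin with the vehicle mean in between, Lepr, Usp9x and Lars2 are high in semaglutide alone, and Ces2a is high in vutiglabridin alone.

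Paraoxonases are esterases, of which Pon1 and Pon3 circulate on HDL while Pon2 stays in the cell, and the series title names Pon2 as the target of vutiglabridin. The 3 genes lie in a row on chromosome 6 of GRCm38 (GENCODE M21), with Pon2 on chromosome 6 at 5264147 to 5298455. Pon2 was at 7.23 to 8.48 FPKM (median 8.02) in vutiglabridin livers and 7.6 to 10.4 (median 9.08) in semaglutide livers. All 8 vutiglabridin values lay below the semaglutide mean, though the ranges overlapped. The difference was −0.14 (95% interval −0.27 to −0.01), with a 2-sided exact permutation p of 0.0235, or 0.0352 adjusted over the 3 genes, and a limma adjusted p of 0.106 over all genes. Without vutiglabridin replicate 1 or 7 or semaglutide replicate 3, 5, 7 or 8 the exact test missed the threshold (adjusted p 0.0576 to 0.0709), while the difference was −0.02 after removal of GC and length trends and −0.25 under TPM (exact permutation adjusted p = 0.00326). Pon3 was at 16.6 to 21.8 FPKM (median 18.3) in vutiglabridin livers and 20.7 to 24.8 (median 22.1) in semaglutide livers, with a difference of −0.24 (exact permutation adjusted p = 0.00699, limma 0.0109). Pon1, by far the most abundant, was at 199 to 278 FPKM (median 245) in vutiglabridin livers and 187 to 276 (median 218) in semaglutide livers. Its difference of 0.15 (95% interval −0.02 to 0.32) did not pass (exact permutation adjusted p = 0.0789) and turned to −0.04 under quantile normalization. It passed without vutiglabridin replicate 3 (0.0352) or semaglutide replicate 4 (0.0217).

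Autophagy is the process by which cells digest their own parts in lysosomes, and only the mRNA of its genes was measured here. Of 47 genes of its machinery 7 were higher and 1 lower, 17% against 21.1% of all genes, with a median of 0.09 that was close to 0 under TPM, with 2 higher and 2 lower there. The count of higher genes was 3 without vutiglabridin replicate 2, 4 without vutiglabridin replicate 7 or semaglutide replicate 2 and 11 after removal of GC and length trends. Atg101, a subunit of the starting kinase complex, was at 20.2 to 25.6 FPKM (median 24.3) in vutiglabridin livers and 14.3 to 25.1 (median 17.3) in semaglutide livers (0.39 ± 0.09, limma adjusted p = 0.00417), and semaglutide replicate 5, at 25.1 FPKM, was the 1 library of its group within the vutiglabridin range. Gabarapl2, which coats autophagosomes, was higher (0.35 ± 0.09). Rb1cc1, the scaffold of the same kinase complex as Atg101, was lower, at 1.81 to 3.31 FPKM (median 2.87) in vutiglabridin livers and 3.68 to 5.03 (median 4.4) in semaglutide livers with no overlap. Its difference of −0.52 ± 0.08 (SE; limma adjusted p = 0.00026) was −0.24 after removal of GC and length trends.

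Of 49 lysosomal genes 5 were higher and 4 lower, 18.4% called against 21.1% of all genes. Their median was 0.02, and TPM gave 2 higher and 8 lower. Lamp1, the main protein of the lysosomal membrane, was at 308 to 394 FPKM (median 342) in vutiglabridin livers and 277 to 295 (median 279.8) in semaglutide livers, with no overlap (0.28 ± 0.06, limma adjusted p = 0.00199), but did not pass under quantile normalization (0.10, adjusted p = 0.29). Ids, which splits sulfate from glycosaminoglycans, was lower with no overlap (−0.50 ± 0.08), and so, with overlap, was Atp6v1a, a subunit of the proton pump (−0.23 ± 0.06).

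Subunits of the respiratory chain were higher in 16 of 72, 22.2% against 10.2% of all genes called higher, with a median of 0.16. That count was 4 under TPM and quantile normalization and 11 after removal of GC and length trends. It was 37 without semaglutide replicate 5, and 10 without vutiglabridin replicate 4 or semaglutide replicate 1, 2, 3, 6 or 8. Sdhb, of complex II, did not overlap between the groups (0.31 ± 0.06, limma adjusted p = 0.00228). Cox7c, of complex IV, was at 59.8 to 95.3 FPKM (median 65.7) in vutiglabridin livers and 32.8 to 75.5 (median 41.8) in semaglutide livers (0.66 ± 0.14, limma adjusted p = 0.00251), and semaglutide replicate 5 was the highest of its group there and in Atp5j, of the ATP synthase (0.24 ± 0.06). Of 77 ribosomal protein genes 4 were higher and 2 lower, 7.79% called against 21.1% of all genes. The higher count was 14 without semaglutide replicate 5, while TPM gave 2 higher and 6 lower. Quantile normalization gave 3 and 10, and removal of GC and length trends 3 and 9. Here Rpl21 was lower with no overlap (−0.21 ± 0.05). Of 32 proteasome subunits 6 were higher, among them Psmd6 (0.27 ± 0.06), or 18.8% against 10.2% of all genes called higher. That count was 12 without semaglutide replicate 7, while TPM left 2 and quantile normalization 3.

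Iron and heme genes were higher in 8 of 26 and lower in 1, 34.6% called against 21.1% of all genes, with a median of 0.13. The count of higher genes was 3 under TPM, 4 under quantile normalization and 5 after removal of GC and length trends. Ftl1, the light chain of the iron store ferritin, was at 1146 to 1717 FPKM (median 1341) in vutiglabridin livers and 739 to 1254 (median 857) in semaglutide livers, with 5 of 8 vutiglabridin values above the semaglutide range (0.54 ± 0.12, limma adjusted p = 0.00362), and did not pass under quantile normalization (0.31, adjusted p = 0.062). Hfe, a sensor of iron load, was higher (0.28 ± 0.06). Ireb2, which blocks ferritin translation when iron is low, was lower (−0.54 ± 0.11).

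The genes called lower had something in common that the level rule did not use, namely long transcripts with little GC. Their median exon length was 7408 bp, against 3471 bp in genes called higher and 4176 bp in genes not called, and their median GC content was 44.6%, against 52.1% and 50.7%. With genes cut into 5 equal bins, in the bin of longest exons (7419 bp or more) 27.3% were lower and 4.96% higher, and in the bin of shortest exons (up to 2431 bp) 3.15% were lower and 14.4% higher. The median difference ran from 0.07 in the shortest to −0.09 in the longest bin. Across genes, which are not independent replicates, the Spearman correlation of the difference was 0.273 with GC content and −0.297 with exon length. Removing each library's trends with both left 2376 calls, 1669 of them shared with the 2382.

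**Figure D5:**
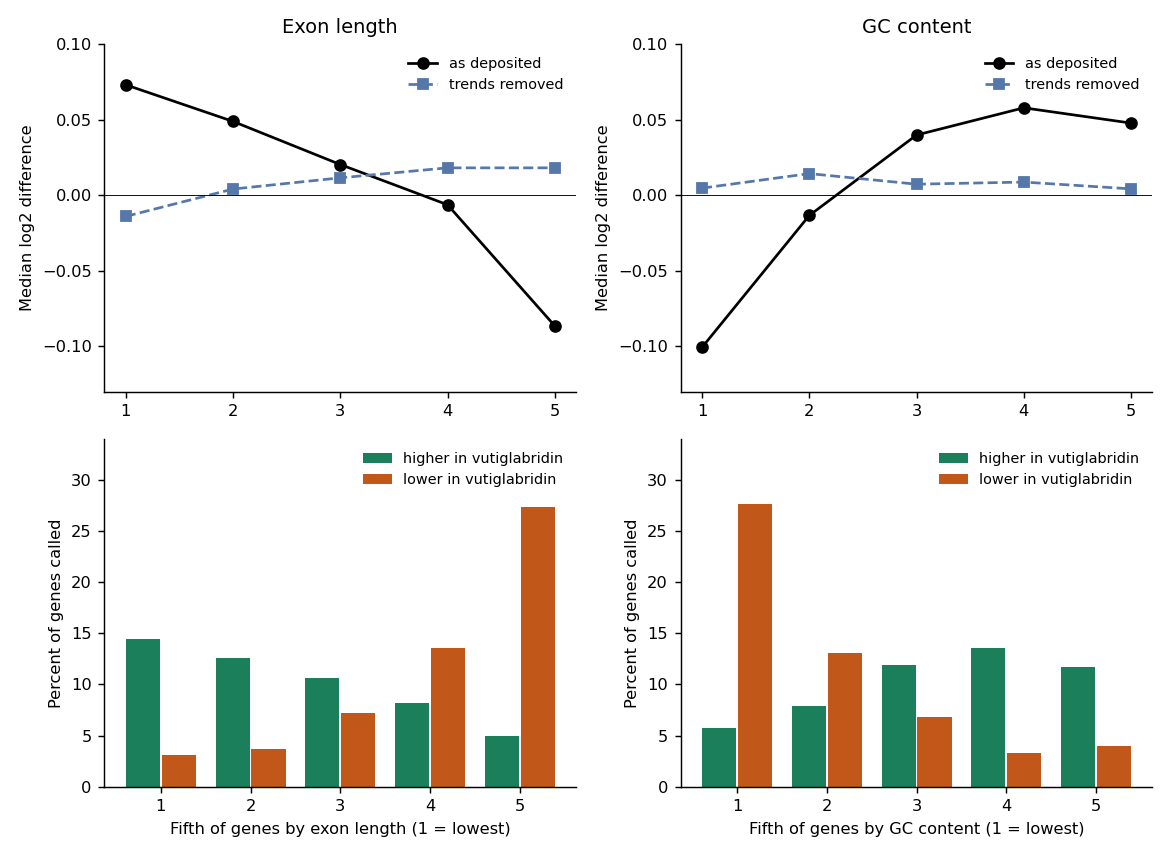
Genes in 5 equal bins by exon length (left) and GC content (right), with the median log2 difference above, as deposited (circles) and after removal of each library's trends (squares), and the percent called higher (green) or lower (orange) below. The share called lower is 27.3% among the longest genes and 3.15% among the shortest, and the trend in the medians is nearly flat after removal.

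Very long genes were also counted as a group. Their list was chosen with earlier results of these data known, so it is no separate support for that pattern. Of 40 giant kinases, ubiquitin ligases and other long proteins 28 were lower and the other 12 did not pass, with a median of −0.30. That is 70.0%, against 11% of all genes, 27.3% of the bin of longest exons and 27.7% of the bin of lowest GC. After removal of GC and length trends 15 were lower and 1 higher, with a median of −0.11. Usp9x, a deubiquitinase on chromosome X at 13071498 to 13173328 (GRCm38, GENCODE M21), was at 2.25 to 3.61 FPKM (median 2.69) in vutiglabridin livers and 5.49 to 9.11 (median 7.22) in semaglutide livers. The groups lay wide apart and vehicle livers were at 2.3 to 3.23 FPKM, the level of vutiglabridin. Its difference was −1.13 ± 0.09 (SE; limma adjusted p = 5.11e-07), and −0.88 after removal of the trends. Atm, the kinase that responds to DNA breaks (−0.78 ± 0.07), and Usp34, a deubiquitinase (−0.62 ± 0.07), did not overlap either, and were at −0.61 and −0.35 after removal.

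Cohesin holds sister chromatids together and shapes chromatin loops. Of 14 genes of its ring, loader and release factors 10 were lower and 4 did not pass, with a median of −0.45, and 9 were lower with a median of −0.24 after removal of the trends. Stag2, a ring subunit, was at 3.86 to 6.81 FPKM (median 6.05) in vutiglabridin livers and 9.1 to 12.2 (median 11.1) in semaglutide livers, with no overlap (−0.81 ± 0.09, limma adjusted p = 1.56e-05). Nipbl, the loader (−0.71 ± 0.07), and Wapl, which opens the ring (−0.58 ± 0.09), were lower with no overlap as well. After removal of the trends these differences were −0.60, −0.55 and −0.47.

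Several single genes were far lower in vutiglabridin than in semaglutide livers, with vehicle near vutiglabridin. Lars2, the mitochondrial leucyl-tRNA synthetase, on chromosome 9 at 123366927 to 123462666 (GRCm38, GENCODE M21), was at 18.4 to 45.1 FPKM (median 35.3) in vutiglabridin livers and 63.9 to 274 (median 146) in semaglutide livers. Vehicle livers held 19.1 to 69 FPKM, and the difference was −2.01 ± 0.24 (SE; limma adjusted p = 2.92e-05). F830016B08Rik was at 0.79 to 2.73 FPKM (median 1) in vutiglabridin livers and 5.24 to 12.2 (median 7.2) in semaglutide livers (−1.90 ± 0.15, limma adjusted p = 5.11e-07), with 0.66 to 1.69 FPKM in vehicle livers. Gprin3 (−1.50 ± 0.14), A1cf, a cofactor of apolipoprotein B mRNA editing (−1.31 ± 0.16), and Abca6, a lipid carrier (−1.15 ± 0.09), did not overlap between the drugs either. Among genes at 20 FPKM or more in both groups, Tmem56 (−0.75 ± 0.09) was lower with no overlap, and Csad, which makes taurine, was lower (−0.84 ± 0.22, limma adjusted p = 0.0113), with semaglutide replicate 1, at 36.9 FPKM, the 1 library of its group within the vutiglabridin range. The differences of Lars2, F830016B08Rik and Gprin3 were −1.92, −1.81 and −1.34 after removal of GC and length trends.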

How the data were processed

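Liver RNA was sequenced in 24 samples, 8 each of vehicle, vutiglabridin and semaglutide, from paired-end reads of a strand-marking Illumina mRNA kit (TruSeq), per the labels' protocols. The deposited FPKM values are the authors' own, 1 per gene and sample. The submitters' processing notes name HISAT2, StringTie and DESeq2. Their versions and roles, the genome build and whether counting used strand were not given in the sources used here. All 14293 identifiers and symbols match GENCODE M21 (GRCm38), from which exon length, GC content and coordinates come.

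FPKM divides by gene length and library size, so abundant genes can shift all others, and members of multigene families, overlapping genes and antisense pairs are uncertain as single genes. Groups follow the treatment label. Values were taken as log2(FPKM + 1), with a pseudocount of 1. A limma model (limma 3.58.1 under R 4.3.3, 2-sided, variances moderated along a trend with the mean level) with 2 group means was fitted to the 16 drug-treated samples and all 11280 genes, with Benjamini-Hochberg adjustment over all of them. Every adjusted p without another name is from it, errors after ± are SE unless named SD, and n = 8 per group. Pon1 to Pon3 also had exact permutation tests over all 12870 splits. Lists are described by counts and medians, with no test of the list.

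The members and gene lists were chosen with earlier results of these data known. Named genes follow a rule: the 12 largest and 12 lowest differences among called genes with at least 1 FPKM in the higher group, the 8 largest and 8 lowest among called genes with at least 20 FPKM in both, up to 5 called members of lowest p per list (2 members of lowest p where fewer than 2 were called), and Pon1, Pon2, Pon3 and Glp1r. A part of these is named, and some are not reported here. Ddx3y and Eif2s3y lie outside the rule and were chosen after their values were seen. Alternatives were pseudocounts of 0.1 and 0.5, other filters, TPM, quantile normalization, removal of GC and exon length trends (splines with 5 degrees of freedom), all 24 samples in 1 fit, the replicate number as a block, values rounded to 2 decimals, exact Wilcoxon tests, repeated symbols kept and each sample left out. Leaving out samples for the gene lists was added after seeing the data.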

Additional observations from a re-analysis of the deposited data

Results flagged for a closer look

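In 20 of 246 groups of 8 values (123 named genes, 2 drugs) 1 sample lay apart from the others by Dixon's test at its 95% level, that is 8.1%, where chance gives about 1 in 20. Semaglutide replicate 1 lay apart in Cd24a at 3.43 FPKM (lowest, next 7.81), Sox4 at 2.04 FPKM (lowest, next 4.11), Bicc1 at 2.66 FPKM (lowest, next 4.84) and Noct at 6.66 FPKM (highest, next 3.18). Semaglutide replicate 5 lay apart in Rhbg at 1.17 FPKM (highest, next 0.51), Cox7c at 75.53 FPKM (highest, next 47.41) and Atp5j at 56.36 FPKM (highest, next 48.05). Semaglutide replicate 6 lay apart in Acot3 at 2.73 FPKM (lowest, next 9.32) and Ccl5 at 11.37 FPKM (highest, next 6.14). Semaglutide replicate 7 lay apart in Mup16 at 0.32 FPKM (lowest, next 2.18), Serpina3k at 440.66 FPKM (lowest, next 903.33), Cyp2c54 at 6.12 FPKM (lowest, next 30.65) and C8b at 30.6 FPKM (lowest, next 45.86). Vutiglabridin replicate 3 lay apart in Ahcy at 142.73 FPKM (lowest, next 181.79) and Asl at 88.31 FPKM (lowest, next 110.09). Vutiglabridin replicate 4 lay apart in Ifi44 at 0.37 FPKM (lowest, next 0.51) and Stag2 at 3.86 FPKM (lowest, next 5.44). Vutiglabridin replicate 6 lay apart in Fgf21 at 1.8 FPKM (lowest, next 3.66). Vutiglabridin replicate 7 lay apart in Mup12 at 32.16 FPKM (highest, next 8.69) and Mup1 at 10.56 FPKM (highest, next 4.35). What sets these samples apart was not tested.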

How the results depend on the processing

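Of 120 named genes other than the paraoxonases, 110 kept their direction and their side of the threshold in every setting that tested them (the stricter floor of 1 FPKM on the mean tested 116 of them, and each other setting 120). The other 10 lost their call in at least 1 with no change of sign, and are given beside their values in the report. These 120 are only a part of the genes that the naming rule gives, so the share does not describe all of those. Among genes of the rule left out of the text, Cyp4a14, Mt1 and Cdkn1a each lost their call with any of several single libraries left out. TPM gave 512 genes higher and 1988 lower in place of 1145 and 1237; it divides by a total that is larger in vutiglabridin libraries. A pseudocount of 0.1 gave 128 genes past a 2-fold difference and TPM 88, against 53. Leaving out 1 library gave 1926 to 2661 calls, 869 to 1345 higher and 1057 to 1316 lower. The difference of Pon1 was −0.0389 under quantile normalization (exact permutation adjusted p = 0.581) and 0.12 to 0.20 with 1 library left out; that of Pon2 was −0.17 to −0.11 and that of Pon3 −0.27 to −0.22. Under TPM they were −0.25 for Pon2 (adjusted p = 0.00326) and −0.35 for Pon3 (0.000932). The causes of these changes were not tested for Pon1 and Pon2. Samples share replicate numbers across the groups, and no clear pairing by number was seen. Same-numbered samples' deviations correlated at −0.203 to 0.285, 3 of 8 over 0.1. In each drug 1 of 8 libraries, replicate 8, correlated best with its own number. With 8 pairs, such correlations cannot exclude a weak effect shared by same-numbered samples. With the replicate number as a block, 2074 genes were called, 1952 of them shared, and Pon2 was at −0.14 (adjusted p = 0.0547). The shallowest library, at 5.98 M (mega) fragments, limits the low genes most.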
